A study of Mus musculus with 8 samples.

Results

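Interleukins are the cytokines through which leukocytes, stromal cells and fat cells signal to each other, and each acts through a receptor of 1 or more chains. Of 54134 genes in the deposited table, 83 had a symbol that starts with Il and a digit. The 58 of these above 0 in at least 2 libraries are described here. They were 19 ligands, 34 receptor chains, 4 antagonists or decoys, and Il4i1, an amino acid oxidase named for its induction by IL-4. The cells were wild-type mouse bone marrow adipocytes, grown from marrow stem cells by 14 days of adipogenic differentiation in culture. GC+GW9662 cells (n = 3 libraries) were given the synthetic glucocorticoid dexamethasone (DEX) at 1e-06 M for 24 hours together with GW9662, an inhibitor of the fat cell transcription factor PPARγ whose dose is not given in the sources used here. GC cells (n = 3) had the same DEX alone, and Control cells (n = 2) were differentiated and had neither agent per the labels. All 3 groups carried the same genotype and differentiation, and no label says which libraries came from separate cultures. The p-values measure spread between libraries, which may be technical.

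Glucocorticoids are best known as suppressors of cytokine genes, while fat cells, marrow stroma and macrophages are known sources of interleukins. The IL-1 family (IL-1, IL-18, IL-33, IL-36) signals through paired receptor chains and the adaptor Myd88, and is held back by soluble antagonists. Most other interleukins use receptors that share a chain, such as gp130 for IL-6 and IL-11, the common gamma chain for IL-7 and IL-15, or the second chain of the IL-10 receptor, and that signal through JAK kinases and STAT factors.

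Levels are TPM, reads per length of gene with 1 total for all libraries, so levels of different genes can be set side by side. No library total is given. In a gene of 1000 exon bases, 1 read was worth 0.0904 to 0.0969 TPM in GC+GW9662, 0.0806 to 0.1001 TPM in GC and 0.088 to 0.0944 TPM in Control. Fkbp5 and Tsc22d3, which glucocorticoids are known to induce, went against the labels: Tsc22d3 stood at 432, 401 and 455 TPM in GC+GW9662, 50.9, 65.4 and 62.7 TPM in GC and 572 and 543 TPM in Control, and Fkbp5 at 104, 78.8 and 104 TPM in GC+GW9662, 32.5, 80.3 and 62.8 TPM in GC and 463 and 429 TPM in Control. Every direction below therefore rests on how the libraries are labelled. The cells are labelled adipocytes, but summed TPM of 10 macrophage markers was 21900 to 25800 in GC+GW9662, 9790 to 10300 in GC and 28500 to 29400 in Control, while 9 adipocyte markers summed to 1080 to 1230 TPM in GC+GW9662, 37.3 to 52.6 TPM in GC and 1200 TPM in both Control libraries. Of the 9 adipocyte markers 8 reached 1 TPM in at least 1 library, and Lep was at 0 throughout. In Control the macrophage sum came mostly from Lyz2, C1qa and C1qb, with means of 10700, 7940 and 6970 TPM. Single markers did not all follow the sums. Mean Csf1r was 139 TPM in GC+GW9662, 28.5 TPM in GC and 709 TPM in Control, and mean Cd68 594, 2650 and 979 TPM. In the same order mean Lpl was 92.8, 5.51 and 621 TPM, and mean Fabp4 706, 32.1 and 301 TPM. In such bulk RNA fewer cells of a type and less RNA per cell cannot be told apart. GC replicate 1 differed from GC replicates 2 and 3: it was the lowest of them in 56.5% of 14985 genes and in 14 of 24 tested receptor genes, and values without it are given for the members whose calls it changed.

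The 250 bases before the start of 4 members are shown because they stand for both patterns of GC described below: Il11 and Il1f9, at their highest in GC, and Il18 and Il1rn, at their lowest there. Sequences are from RefSeq (GRCm38.p6), 5′ to 3′, and 47 of the 58 members had an entry. RefSeq lists 3 starts for Il1rn and 2 for Il11, and only the window nearest the start in the deposited table was used. That of Il1rn stops at 243 bases, where the gene begins in the deposited table. Positions of matches count from the RefSeq start, which for Il1rn lies 7 bases further on. The RefSeq start of Il18 lies 127 bases before its start in the deposited table, and the bases between were not scanned. Capitals mark matches to 3 motifs, the AP-1 site TGANTCA, the glucocorticoid receptor core ACANNNTGT and the STAT site TTCNNNGAA, each of which reads the same on both strands.
Il11, chr7:4782858-4783107, minus strand: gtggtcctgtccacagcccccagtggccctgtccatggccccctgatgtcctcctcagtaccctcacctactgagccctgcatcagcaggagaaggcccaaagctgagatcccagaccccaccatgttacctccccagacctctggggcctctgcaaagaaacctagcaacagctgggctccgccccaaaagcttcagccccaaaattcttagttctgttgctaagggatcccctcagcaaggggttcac
Il1f9, chr2:24186226-24186475, plus strand: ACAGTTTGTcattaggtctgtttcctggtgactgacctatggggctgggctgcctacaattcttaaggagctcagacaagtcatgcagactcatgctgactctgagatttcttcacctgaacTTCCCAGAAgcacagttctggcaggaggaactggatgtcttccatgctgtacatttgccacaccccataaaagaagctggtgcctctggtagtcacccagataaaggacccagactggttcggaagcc
Il18, chr9:50554450-50554699, plus strand: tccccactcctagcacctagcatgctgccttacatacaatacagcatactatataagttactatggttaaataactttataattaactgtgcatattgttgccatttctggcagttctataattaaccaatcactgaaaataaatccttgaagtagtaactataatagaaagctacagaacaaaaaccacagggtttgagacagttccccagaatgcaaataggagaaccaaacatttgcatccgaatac
Il1rn, chr2:24336610-24336852, plus strand: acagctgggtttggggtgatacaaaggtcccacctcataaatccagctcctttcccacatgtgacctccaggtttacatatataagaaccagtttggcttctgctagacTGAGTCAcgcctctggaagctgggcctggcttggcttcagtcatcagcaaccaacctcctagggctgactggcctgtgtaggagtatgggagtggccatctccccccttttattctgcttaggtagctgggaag
Il1f9 held a glucocorticoid receptor core 250 bases before its start and a STAT site 128 bases before it, Il1rn an AP-1 site at 141 bases, and the windows of Il11 and Il18 none of the 3. Such matches are common: of 32817 RefSeq windows of this length 6.75% held the AP-1 letters, 5.84% the receptor core and 7.01% the STAT letters, and of 30 tested members with a window 4, 3 and 3 held them. A match describes letters only and does not show binding.

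Of the 58 members, 38 were tested, as they had 1 TPM or more in at least 2 libraries, together with all other genes that did. Il1f9, Il1a and Il20rb reached 1 TPM in GC libraries alone, and Il18rap in GC+GW9662 libraries alone. Such members entered the test only through the group where they were high, so their calls are no independent support. In the libraries labelled GC most interleukin receptor genes that changed were lower than in Control, while 3 ligand genes, Il11, Il1f9 and Il1a, were higher. Against Control, 5 members rose and 19 fell in GC, and 14 did not pass (limma, adjusted p below 0.05), while 16.2% of all genes tested rose and 39.1% fell. The median difference was -0.82 over the members and -0.38 over all genes on the log2(TPM + 1) scale, which understates the change of low genes. By class, 3 of 12 tested ligands rose and 4 fell, 2 of 24 receptor chains rose and 14 fell, and 1 of 2 antagonists fell. Another scaling moved this split: median-ratio scaling gave 7 higher and 14 lower members and quantile normalization 8 and 13, as these brought the median of all genes to 0.06 and 0.08. Without Control replicate 2, 3 members rose in place of 5.

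With the inhibitor added, receptor genes were more often higher than lower relative to GC. Of the 38 members, 16 rose and 9 fell in GC+GW9662 against GC, where 28.3% of all genes rose and 33.5% fell. The members' median was 0.34, against -0.11 over all genes. Among ligands 4 rose and 3 fell, among receptor chains 11 rose and 5 fell, and both antagonists changed, 1 each way. Set against Control, 4 members rose and 13 fell in GC+GW9662, beside 14.1% and 48.6% of all genes, with medians of -0.18 and -0.49. That last split turned round with scaling, to 14 higher and 9 lower by median ratio and 11 higher and 6 lower by quantile normalization. These scalings brought the median of all genes in that comparison from -0.49 to 0.03 and 0. Fewer members were called in either direction without Control replicate 1. The comparisons share libraries, so their results are not independent of each other.

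Il11, Il1f9 and Il1a were the ligands higher in GC. Il11, a gp130 cytokine first known from marrow stroma as an inhibitor of fat cell formation, measured 1.39, 2.21 and 1.21 TPM in GC+GW9662, 22.1, 17.5 and 19.0 TPM in GC and 1.70 and 2.21 TPM in Control. The 3 GC libraries stood apart from all 5 others, which overlapped. GC was 2.80 ± 0.23 above Control (log2 ± SE, limma adjusted p = 2.8e-05), and GC+GW9662 was -2.99 ± 0.20 from GC (adjusted p = 1.1e-05).

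Il1f9 encodes IL-36γ, an alarm cytokine of the IL-1 family best known from skin. It measured 0, 0 and 0.0548 TPM in GC+GW9662, 5.47, 5.61 and 8.02 TPM in GC and 0.0573 and 0 TPM in Control. In reads, recovered from the steps between TPM values, that was 0, 0 and 1 in GC+GW9662, 90, 112 and 164 in GC and 1 and 0 in Control. The gene was thus seen in all GC libraries and close to absent elsewhere, and its fitted differences of 2.82 ± 0.20 (GC against Control, adjusted p = 1.4e-05) and -2.84 ± 0.18 (GC+GW9662 against GC, adjusted p = 7.5e-06) depend on the pseudocount and give no fold. Because Il1f9 entered the test only through the GC libraries, where it was high, these p-values are no independent support. Il1f9 lies 143.3 kb from Il1rn on chromosome 2, and the pair moved in opposite directions.

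Il1a encodes IL-1α, which cells hold ready and release on injury. Its level was 0 TPM in each GC+GW9662 library, 0.507, 1.30 and 1.71 TPM in GC and 0.0478 and 0 TPM in Control, or 10, 31 and 42 reads in GC and at most 1 read elsewhere. The difference of GC from Control was 1.04 ± 0.25 (adjusted p = 0.0074), and it missed the threshold without Control replicate 2 (1.01, adjusted p = 0.059) and with the length trend removed (0.78, adjusted p = 0.06). GC+GW9662 fell by 1.08 (SE 0.22, adjusted p = 0.0035) relative to GC. Il1a entered the test only through GC libraries, where it was high, so these p-values are no independent support. A noncoding gene on the other strand shares 11.2% of its exon bases, and these libraries carry no strand. Its neighbour Il1b, 54.6 kb away and the main secreted form of IL-1, measured 0.286, 1.42 and 0.866 TPM in GC+GW9662, 1.33, 0.426 and 0.178 TPM in GC and 0.209 and 0.130 TPM in Control. Libraries of GC+GW9662 and GC, and of GC and Control, overlapped for Il1b, and no comparison passed (GC against Control 0.43 ± 0.35, adjusted p = 0.32).

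**Figure D1:**
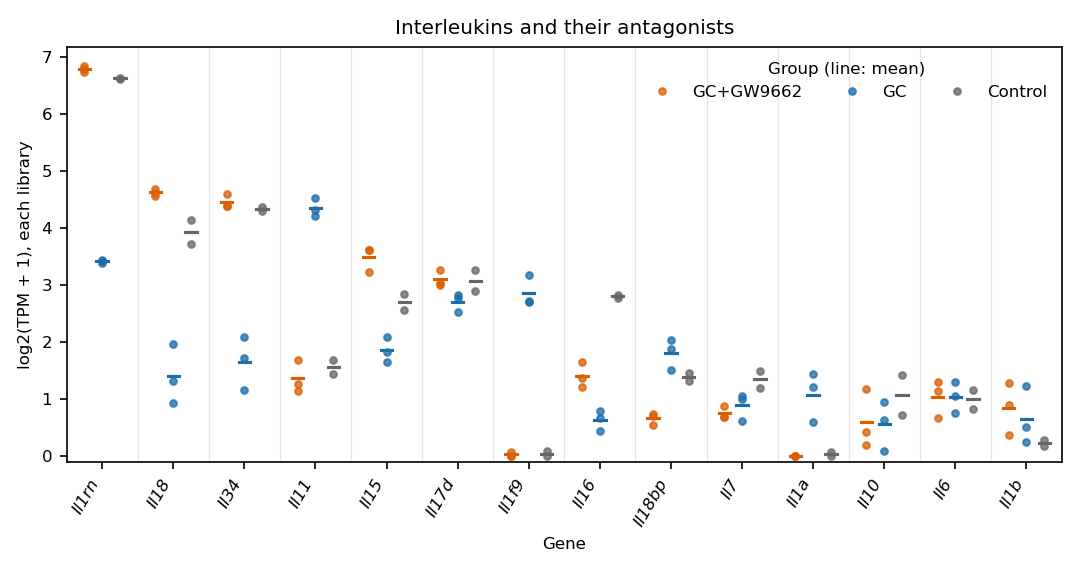
Levels of 12 tested interleukin ligands and 2 antagonists as log2(TPM + 1), 1 point per library, with a line at the mean of each group. GC+GW9662 (3 libraries) stands left of GC (3) and Control (2) in each gene. Il1rn, Il18 and Il34 dip in GC, while Il11 and Il1f9 are high in GC alone among these groups.

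Il18, Il34, Il16 and Il15 were the ligands lower in GC. Il18, an IL-1 family cytokine that is cut to its active form by caspase-1, measured 24.8, 23.5 and 22.7 TPM in GC+GW9662, 0.905, 1.49 and 2.91 TPM in GC and 12.1 and 16.6 TPM in Control. No groups overlapped. GC fell by 2.52 (SE 0.30, adjusted p = 0.00021) relative to Control, and GC+GW9662 exceeded GC by 3.22 ± 0.27 (adjusted p = 3.2e-05). The difference of GC+GW9662 from Control, 0.70 ± 0.30, did not pass (adjusted p = 0.072), and ranged from -0.17 with the length trend removed to 1.57 after quantile normalization, where it did (adjusted p = 0.0034). It also passed at the same size without GC replicate 1 (adjusted p = 0.018) or 3 (adjusted p = 0.03).

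Il34 encodes a ligand of the macrophage growth factor receptor Csf1r. It measured 20, 19.9 and 23.1 TPM in GC+GW9662, 1.23, 3.26 and 2.29 TPM in GC and 19.7 and 18.6 TPM in Control. GC stood below both other groups, by -2.68 ± 0.27 relative to Control (adjusted p = 7.9e-05), and GC+GW9662 exceeded GC by 2.80 ± 0.24 (adjusted p = 3.5e-05). Its receptor gene Csf1r, no interleukin gene by name, measured 147, 123 and 147 TPM in GC+GW9662, 15.4, 39.4 and 30.8 TPM in GC and 730 and 688 TPM in Control. In GC+GW9662 the receptor was thus far below its Control level, while the ligand did not pass against Control (0.12, adjusted p = 0.71), except as higher after median-ratio scaling (0.78, adjusted p = 0.015) or quantile normalization (0.99, adjusted p = 0.0059).

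Il16, a chemoattractant for CD4+ cells, measured 1.57, 1.30 and 2.15 TPM in GC+GW9662, 0.590, 0.722 and 0.352 TPM in GC and 6.08 and 5.84 TPM in Control. GC was lowest, and the groups did not overlap (GC against Control -2.17 ± 0.21, adjusted p = 6.7e-05, and GC+GW9662 against GC 0.78 ± 0.19, adjusted p = 0.0079). Stard5 on the other strand shares 15.3% of the exon bases of Il16. Il15, which sustains natural killer and memory T cells, measured 11.3, 8.35 and 11.3 TPM in GC+GW9662, 3.25, 2.12 and 2.53 TPM in GC and 4.90 and 6.13 TPM in Control. Here GC+GW9662 was highest, at 1.64 ± 0.20 above GC (adjusted p = 0.00027) and 0.79 ± 0.23 above Control (adjusted p = 0.016). The fall in GC against Control (-0.85 ± 0.23, adjusted p = 0.013) missed the threshold without Control replicate 2 (-0.71, adjusted p = 0.12) and after median-ratio scaling (-0.40, adjusted p = 0.21) or quantile normalization (-0.10, adjusted p = 0.77). The rise over Control in GC+GW9662 missed it without Control replicate 1 (0.65, adjusted p = 0.13) and with the length trend removed (0.32, adjusted p = 0.21).

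Il17d, Il6 and Il10 did not pass in any comparison. Il17d, a member of the IL-17 family expressed outside the immune system, was the highest of them, with 7.22, 8.55 and 6.95 TPM in GC+GW9662, 4.79, 5.83 and 6.07 TPM in GC and 6.45 and 8.56 TPM in Control. Its difference of GC+GW9662 from Control passed in opposite directions under other settings, at 0.62 after median-ratio scaling (adjusted p = 0.024) and 0.97 after quantile normalization (adjusted p = 0.005) but -0.77 with the length trend removed (adjusted p = 0.02). With that trend removed GC also fell below Control for Il17d (-0.81, adjusted p = 0.015), and GC+GW9662 exceeded GC under both scalings (0.52, adjusted p = 0.03, and 0.60, adjusted p = 0.017). Il6, the classical inflammatory and senescence-associated cytokine, measured 1.2, 0.586 and 1.47 TPM in GC+GW9662, 1.45, 1.06 and 0.688 TPM in GC and 0.765 and 1.24 TPM in Control. All 3 groups overlapped for Il6, and GC differed from Control by 0.04 ± 0.26 (adjusted p = 0.92). Il10, the anti-inflammatory cytokine, measured 0.148, 1.26 and 0.345 TPM in GC+GW9662, 0.917, 0.063 and 0.554 TPM in GC and 0.648 and 1.68 TPM in Control, again with overlap. In reads, Il10 had 2 to 18 in GC+GW9662, 1 to 12 in GC and 9 and 25 in Control, so only a large difference was detectable, and with the length trend removed it fell relative to Control in GC+GW9662 (-1.25, adjusted p = 0.0097) and in GC (-0.95, adjusted p = 0.028). Il33, an alarm cytokine of barrier and stromal cells, was at 0, 0 and 0.178 TPM in GC+GW9662, 0.275, 0.195 and 0.0634 TPM in GC and 0.297 and 0.138 TPM in Control and was not tested. Il7, which lymphoid cells need to survive, fell by 0.60 (SE 0.21, adjusted p = 0.034) in GC+GW9662 relative to Control, with means of 0.679 TPM in GC+GW9662 and 1.55 TPM in Control. That call was lost without either Control library (adjusted p of 0.24 and 0.073), after median-ratio scaling (-0.24) and quantile normalization (-0.26) and with the length trend removed (-0.15).

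The antagonists held both a high and a low gene. Il1rn encodes the IL-1 receptor antagonist, which binds the receptor of IL-1 without signalling. It was among the 3 most abundant members in Control, and measured 110, 106 and 113 TPM in GC+GW9662, 9.49, 9.73 and 9.78 TPM in GC and 98.0 and 97.3 TPM in Control. The 3 groups did not overlap, GC was 10.1-fold lower than Control on the ratio of means, and the libraries within each group lay close together. The difference was -3.21 ± 0.11 in GC against Control (adjusted p = 4.6e-07) and 3.37 ± 0.09 in GC+GW9662 against GC (adjusted p = 2.1e-07). Il18bp, which neutralises IL-18, had means of 0.581 ± 0.118 TPM in GC+GW9662 and 2.54 ± 0.639 TPM in GC (SD, n = 3 each), and 1.61 ± 0.168 TPM in Control (SD, n = 2). It fell by 1.15 in GC+GW9662 relative to GC (SE 0.19, adjusted p = 0.0012) and did not pass in GC against Control (0.42 ± 0.21, adjusted p = 0.12), except after median-ratio scaling (0.75, adjusted p = 0.029) or quantile normalization (0.86, adjusted p = 0.02) or without GC replicate 2 (0.57, adjusted p = 0.043). Its fall relative to Control in GC+GW9662 (-0.72 ± 0.21, adjusted p = 0.017) was lost without Control replicate 1 (adjusted p = 0.077) or 2 (adjusted p = 0.12) and after median-ratio scaling (-0.36) or quantile normalization (-0.40). Il18 and its neutraliser thus had opposite signs in the comparison of GC+GW9662 with GC. The decoys Il1r2 and Il13ra2 stayed below 1 TPM in every library and were not tested.

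The members at or above 5 TPM in a group were mostly receptor chains. Summed over 34 receptor genes, levels were 344, 303 and 351 TPM in GC+GW9662, 145, 276 and 219 TPM in GC and 560 and 544 TPM in Control. The 19 ligands summed to 68.5, 67.7 and 71.6 TPM in GC+GW9662, 44.6, 41.6 and 46.8 TPM in GC and 55.2 and 62.7 TPM in Control. Receptor sums were thus lowest in GC and highest in Control, and ligand sums were highest in GC+GW9662.

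Both chains of the IL-10 receptor were lowest in GC. Il10rb, the chain shared with the IL-22 family, measured 112, 99.0 and 112 TPM in GC+GW9662, 22.9, 21 and 22.8 TPM in GC and 117 and 118 TPM in Control. Il10ra, which binds IL-10, measured 15.7, 10.8 and 15.8 TPM in GC+GW9662, 1.83, 2.22 and 1.91 TPM in GC and 34.3 and 27.8 TPM in Control. Neither gene overlapped between groups. Relative to Control, Il10rb fell by 2.35 (SE 0.11, adjusted p = 1.9e-06) and Il10ra by 3.42 (SE 0.21, adjusted p = 7.3e-06) in GC. Relative to GC, they rose by 2.22 ± 0.10 (adjusted p = 1.4e-06) and 2.32 ± 0.19 (adjusted p = 3.0e-05) in GC+GW9662. Il10ra in GC+GW9662 still lay below Control (-1.10 ± 0.21, adjusted p = 0.0037), a call that median-ratio scaling (-0.44, adjusted p = 0.064) and quantile normalization (-0.29, adjusted p = 0.21) ended. A predicted gene on the same strand shares 14.9% of the exon bases of Il10rb.

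Il4ra, the chain that IL-4 and IL-13 share and through which they turn macrophages to their alternative state, measured 38.0, 29.9 and 35.6 TPM in GC+GW9662, 13.6, 28.0 and 21.5 TPM in GC and 117 and 111 TPM in Control. Both treated groups stood below Control, by -1.70 ± 0.26 in GC+GW9662 (adjusted p = 0.0022) and -2.44 ± 0.26 in GC (adjusted p = 0.00013). The step between GC+GW9662 and GC was small (0.74 ± 0.24, adjusted p = 0.026), moved to 0.47 without GC replicate 1, and missed the threshold without GC replicate 3 (0.78, adjusted p = 0.056), GC+GW9662 replicate 1 (0.67, adjusted p = 0.082) or GC+GW9662 replicate 3 (0.71, adjusted p = 0.07). Its partner Il13ra1 measured 9.97, 5.62 and 9.50 TPM in GC+GW9662, 4.88, 8.23 and 6.90 TPM in GC and 13.2 and 11.8 TPM in Control. Control was highest for Il13ra1, but the fall in GC (-0.84 ± 0.28, adjusted p = 0.035) was lost without Control replicate 1 (adjusted p = 0.17), Control replicate 2 (adjusted p = 0.11) or GC replicate 3 (adjusted p = 0.069), and after median-ratio scaling (-0.35) or quantile normalization (-0.10).

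Il7r, the IL-7 receptor of lymphoid cells, was the receptor gene with the largest rise in GC. It measured 2.93, 1.89 and 2.22 TPM in GC+GW9662, 8.74, 27.7 and 19.1 TPM in GC and 3.04 and 3.73 TPM in Control. The GC libraries lay above all others, with GC replicate 1 the lowest of them. The differences were 2.02 ± 0.41 in GC against Control (adjusted p = 0.0037) and -2.42 ± 0.37 in GC+GW9662 against GC (adjusted p = 0.00082). Of 6 tested T and B cell markers 0 passed in GC against Control, where 16.2% of all genes rose and 39.1% fell. In GC+GW9662 4 rose and 0 fell relative to GC, beside 28.3% and 33.5% of all genes. Relative to Control, 5 rose and 0 fell in GC+GW9662, beside 14.1% and 48.6% of all genes. The whole list of 9 summed to 21.1 to 24.9 TPM in GC+GW9662, 7.11 to 14.3 TPM in GC and 9.57 to 10.2 TPM in Control, and the B cell marker Ms4a1 was at 0 throughout.

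Other chains of the IL-2 and IL-15 receptors were highest in GC+GW9662 or in Control. Il2rb, which serves both cytokines, measured 7.97, 10.4 and 8.75 TPM in GC+GW9662, 6.02, 5.20 and 3.46 TPM in GC and 3.35 and 4.36 TPM in Control. GC+GW9662 lay above both groups for Il2rb, by 0.79 ± 0.22 over GC (adjusted p = 0.015) and 1.05 ± 0.25 over Control (adjusted p = 0.007). The first of these missed the threshold without GC replicate 3 (adjusted p = 0.058) or GC+GW9662 replicate 2 (adjusted p = 0.052), and the other without Control replicate 1 (adjusted p = 0.069). Il15ra, which presents IL-15 to neighbouring cells, had means of 3.65 ± 0.716 TPM in GC+GW9662 and 0.700 ± 0.155 TPM in GC (SD, n = 3 each), and 3.50 ± 0.703 TPM in Control (SD, n = 2). Like its ligand Il15, it rose in GC+GW9662 relative to GC (1.44 ± 0.19, adjusted p = 0.00042) and fell in GC relative to Control (-1.40 ± 0.22, adjusted p = 0.00087). Il2rg, the common gamma chain, measured 8.24, 6.30 and 8.23 TPM in GC+GW9662, 7.25, 5.88 and 4.39 TPM in GC and 12.9 and 9.22 TPM in Control. Its fall in GC (-0.82 ± 0.25, adjusted p = 0.022) was lost without Control replicate 1 (adjusted p = 0.19) or GC replicate 3 (adjusted p = 0.072) and after 3 other scalings, and 30.5% of its exon bases belong to a second gene as well. Il21r, the IL-21 receptor, averaged 2.42 TPM in GC+GW9662, 0.794 TPM in GC and 2.34 TPM in Control, and was lower in GC than in Control (-0.93 ± 0.27, adjusted p = 0.018) and higher in GC+GW9662 than in GC (0.96 ± 0.24, adjusted p = 0.0089). The first of these was lost without either Control library (adjusted p of 0.12 and 0.071) and after median-ratio scaling (-0.58) or quantile normalization (-0.49). Il2ra did not pass in any comparison, and its difference of GC+GW9662 from Control (0.65, adjusted p = 0.1) passed under 5 alternatives: after median-ratio scaling (1, adjusted p = 0.031) or quantile normalization (1.03, adjusted p = 0.045), with the length trend removed (1.1, adjusted p = 0.025), without GC+GW9662 replicate 2 (0.88, adjusted p = 0.036) and with a block by bracket number (0.79, adjusted p = 0.047).

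**Figure D2:**
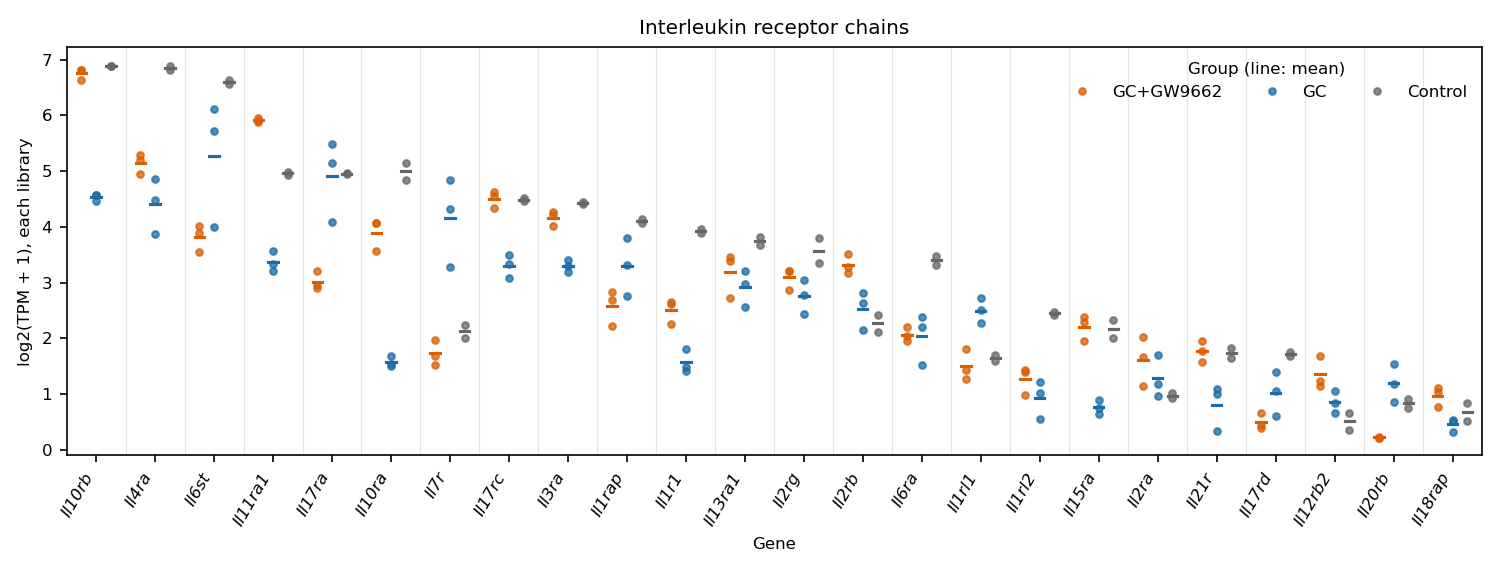
Levels of 24 tested interleukin receptor chains as log2(TPM + 1), 1 point per library, with a line at the mean of each group, and genes ordered by their highest single library. GC+GW9662 (3 libraries) stands left of GC (3) and Control (2). Il10rb, Il11ra1 and Il10ra dip in GC, Il6st and Il17ra are lowest in GC+GW9662, and Il7r is highest in GC.

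The receptors of the gp130 family split in 2 ways. Il11ra1, which binds IL-11, measured 58.9, 58.1 and 61.1 TPM in GC+GW9662, 10.9, 9.03 and 8.23 TPM in GC and 29.7 and 30.6 TPM in Control. It was lowest in GC, where its ligand Il11 was highest, and highest in GC+GW9662. The differences were -1.59 ± 0.14 in GC against Control (adjusted p = 4.9e-05), 2.55 ± 0.13 in GC+GW9662 against GC (adjusted p = 2.5e-06) and 0.95 ± 0.14 in GC+GW9662 against Control (adjusted p = 0.0021). A near-identical copy, Il11ra2, was listed at 0.062 to 0.154 TPM, so reads divided between the 2 copies cannot be told apart.

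Il6st, which encodes the shared signal chain gp130, measured 15.1, 10.7 and 13.9 TPM in GC+GW9662, 14.9, 68.8 and 52.0 TPM in GC and 97.9 and 93.9 TPM in Control. GC replicate 1 lay among the GC+GW9662 libraries, and Control above all others. Relative to Control, GC+GW9662 fell by 2.78 (SE 0.54, adjusted p = 0.0037), while GC was at -1.32 ± 0.54 and did not pass (adjusted p = 0.071). Without GC replicate 1 this second value was -0.67 and passed (adjusted p = 0.013), and without GC replicate 2 it was -1.74 (adjusted p = 0.019). The fall of GC+GW9662 relative to GC (-1.46 ± 0.48, adjusted p = 0.03) was lost without GC replicate 2 (-1.04, adjusted p = 0.085) or 3 (-1.24, adjusted p = 0.099) and without any 1 GC+GW9662 library (-1.56 to -1.33, adjusted p of 0.057 to 0.094). Il6ra, the chain that binds IL-6, measured 2.86, 3.59 and 3.11 TPM in GC+GW9662, 1.88, 4.25 and 3.63 TPM in GC and 9.02 and 10.1 TPM in Control. The treated groups overlapped for Il6ra and both stood below Control, by -1.33 ± 0.27 in GC+GW9662 (adjusted p = 0.0043) and -1.35 ± 0.27 in GC (adjusted p = 0.0035). Quantile normalization reduced the first to -0.44 (adjusted p = 0.11) and the other to -0.60, which still passed.

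Il1r1, Il1rap and Il1rl2 were the IL-1 family receptors lower than in Control in 1 or both treated groups. Il1r1, the signalling receptor of IL-1, measured 5.28, 3.81 and 5.13 TPM in GC+GW9662, 1.82, 2.51 and 1.66 TPM in GC and 13.8 and 14.5 TPM in Control. No groups overlapped, with GC lowest (-2.35 ± 0.21 against Control, adjusted p = 4.9e-05) and GC+GW9662 between (0.94 ± 0.19 against GC, adjusted p = 0.0035). Il1rap, the partner chain of the IL-1, IL-33 and IL-36 receptors, measured 6.09, 3.66 and 5.44 TPM in GC+GW9662, 5.76, 13.0 and 9.02 TPM in GC and 15.8 and 16.6 TPM in Control. It was lower than Control in GC+GW9662 (-1.53 ± 0.32, adjusted p = 0.0046), which removing the length trend ended (-0.54, adjusted p = 0.084), and in GC it did not pass (-0.81 ± 0.32, adjusted p = 0.062), except without GC replicate 2 (-1.06, adjusted p = 0.015) or with a pseudocount of 5 (-0.60, adjusted p = 0.045). GC+GW9662 was at -0.72 from GC (adjusted p = 0.056), which passed without GC replicate 1 (-0.99, adjusted p = 0.0036) and under 2 scalings (-0.60 by median ratio, adjusted p = 0.039, and -0.87 without mitochondrial and top 20 genes, adjusted p = 0.029). Il1rl2, the IL-36 receptor, averaged 1.43 TPM in GC+GW9662, 0.941 TPM in GC and 4.47 TPM in Control. It was lower in GC than in Control (-1.52 ± 0.25, adjusted p = 0.0012), the reverse of its ligand Il1f9. Il1rl1, the IL-33 receptor ST2, went the other way, with 1.41, 1.71 and 2.51 TPM in GC+GW9662, 3.83, 5.58 and 4.67 TPM in GC and 2.03 and 2.26 TPM in Control. GC was highest for Il1rl1 (0.85 ± 0.23 against Control, adjusted p = 0.015), a call lost without Control replicate 1 (adjusted p = 0.11) or 2 (adjusted p = 0.074), and GC+GW9662 was at -0.99 ± 0.21 relative to GC (adjusted p = 0.0041). Il18rap, a chain of the IL-18 receptor, averaged 0.975 TPM in GC+GW9662 and 0.377 TPM in GC (0.52 ± 0.17, adjusted p = 0.031), and lost that call without either Control library (adjusted p = 0.052 for each), GC replicate 2 (adjusted p = 0.09) or GC replicate 3 (adjusted p = 0.063). Only GC+GW9662 libraries reached 1 TPM for Il18rap, so it entered the test through the group where it was high. The partner of Il18rap, Il18r1, was not tested and averaged 1.02 TPM in GC+GW9662, 0.739 TPM in GC and 0.326 TPM in Control.

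The 2 chains of the IL-17 receptor differed from each other. Il17ra, shared by most IL-17 cytokines, measured 6.50, 6.74 and 8.21 TPM in GC+GW9662, 16.1, 43.7 and 34.3 TPM in GC and 30.2 and 30.0 TPM in Control. GC+GW9662 was lowest, at -1.89 ± 0.32 from GC (adjusted p = 0.0015) and -1.94 ± 0.36 from Control (adjusted p = 0.0032), while GC overlapped Control (-0.05 ± 0.36, adjusted p = 0.92, and 0.35 without GC replicate 1). Its partner Il17rc measured 22.6, 19.2 and 23.6 TPM in GC+GW9662, 7.48, 10.3 and 9.10 TPM in GC and 21.8 and 21.2 TPM in Control. Il17rc was lowest in GC (-1.19 ± 0.17 against Control, adjusted p = 0.00067), GC+GW9662 exceeded GC (1.2 ± 0.16, adjusted p = 0.00036) and overlapped Control, though it passed as higher than Control after median-ratio scaling (0.67, adjusted p = 0.0044) or quantile normalization (0.86, adjusted p = 0.0024). Il17rd, a receptor relative that restrains growth factor signalling, averaged 0.421 TPM in GC+GW9662, 1.07 TPM in GC and 2.29 TPM in Control. It was lower than Control in GC+GW9662 (-1.22 ± 0.25, adjusted p = 0.0041) and in GC (-0.70 ± 0.25, adjusted p = 0.04), the second of which was lost without either Control library, without GC replicate 1 or 3 and without GC+GW9662 replicate 1 or 3 (adjusted p of 0.052 to 0.18), and after median-ratio scaling (-0.37) or quantile normalization (-0.26). Removing the length trend ended both calls (-0.25, adjusted p = 0.25, in GC+GW9662 and -0.18, adjusted p = 0.41, in GC). GC+GW9662 was at -0.51 from GC for Il17rd (adjusted p = 0.072), and passed without GC replicate 1 (-0.72, adjusted p = 0.0095), after quantile normalization (-0.58, adjusted p = 0.038) and without mitochondrial and top 20 genes (-0.66, adjusted p = 0.049).

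Il3ra, the IL-3 receptor chain, measured 15.1, 17.5 and 18.3 TPM in GC+GW9662, 8.09, 9.56 and 8.81 TPM in GC and 20.3 and 20.7 TPM in Control. The groups did not overlap, and GC was lowest (-1.13 ± 0.15 against Control, adjusted p = 0.00044, and 0.87 ± 0.14 for GC+GW9662 against GC, adjusted p = 0.00099). Quantile normalization ended the first of these (-0.45, adjusted p = 0.053). Among the low chains, Il20rb, which serves IL-19, IL-20 and IL-24, averaged 0.166 TPM in GC+GW9662, 1.34 TPM in GC and 0.786 TPM in Control, and was lower in GC+GW9662 than in GC (-0.98 ± 0.19, adjusted p = 0.0032). Its fall relative to Control (-0.61 ± 0.22, adjusted p = 0.038) was lost without any 1 of the 5 libraries compared (adjusted p of 0.065 to 0.20). Il12rb2, a chain of the IL-12 receptor, averaged 1.59 TPM in GC+GW9662, 0.820 TPM in GC and 0.435 TPM in Control, and rose in GC+GW9662 over Control (0.84 ± 0.23, adjusted p = 0.013) but not without Control replicate 1 (0.69, adjusted p = 0.13). Relative to GC it was at 0.50 (adjusted p = 0.065), and at 0.59 without GC replicate 1 (adjusted p = 0.043). For Il12rb2, 40% of exon bases lie opposite Serbp1, so its reads are uncertain. Only GC libraries reached 1 TPM for Il20rb, so it entered the test through the group where it was high. Il1rl2 and Il1r1 were also lower than Control in GC+GW9662 (-1.18 ± 0.25, adjusted p = 0.0049, and -1.41 ± 0.21, adjusted p = 0.0021), and quantile normalization ended both calls (adjusted p of 0.082 and 0.066). Il16 was the other ligand lower than Control in GC+GW9662 (-1.39 ± 0.21, adjusted p = 0.0021).

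**Figure D3:**
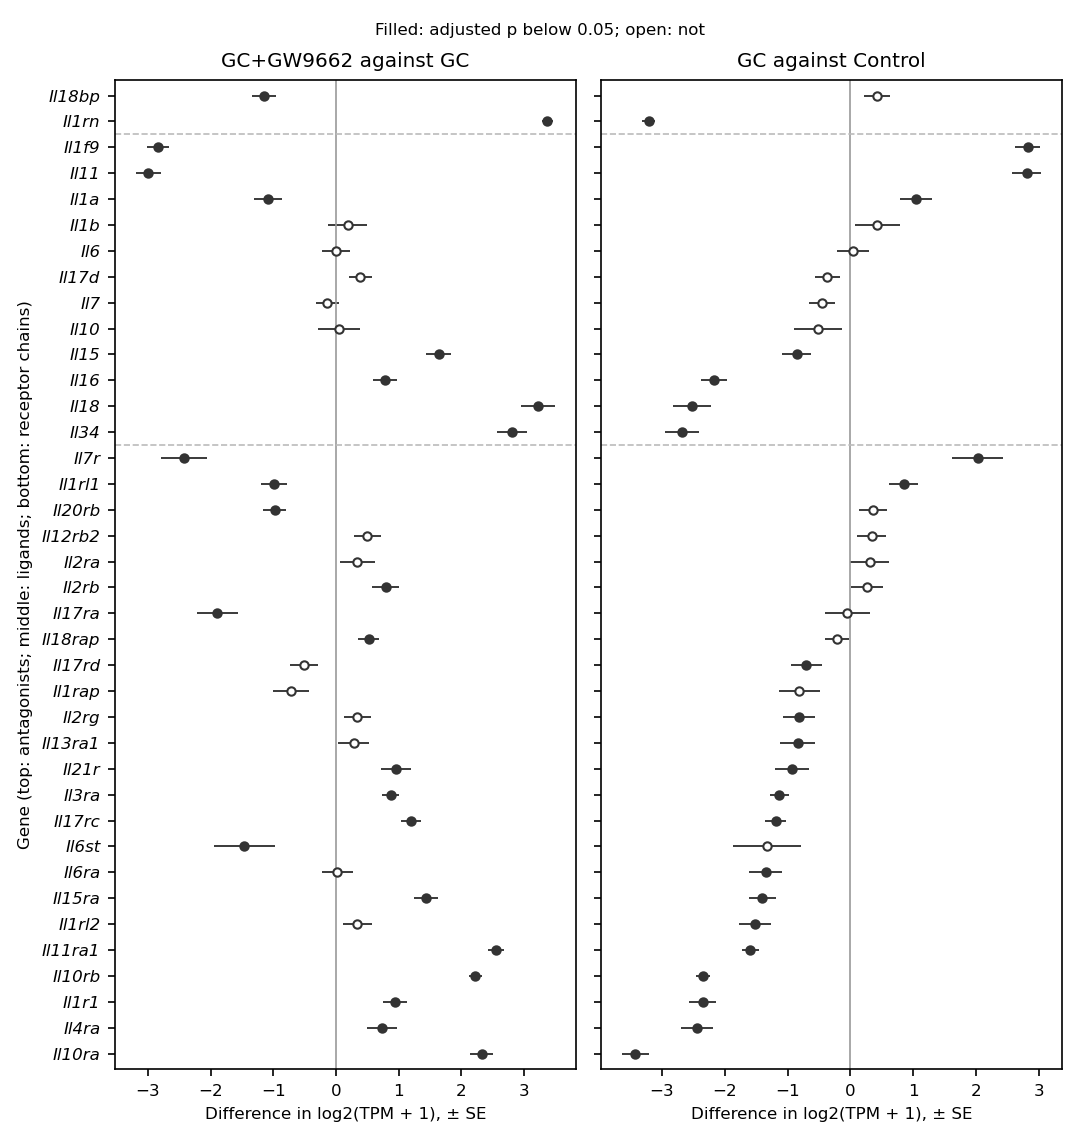
Differences in log2(TPM + 1) with their SE for 38 tested members, GC+GW9662 against GC on the left and GC against Control on the right. Antagonists are at the top, ligands in the middle and receptor chains at the bottom, each ordered by GC against Control. Filled points passed the threshold: 25 on the left and 24 on the right.

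The 20 members that were not tested stayed low: in none of them did a group mean pass 1.02 TPM. Il23a, which encodes the p19 chain of IL-23 and was picked out after its values were seen, was at 0 in all GC+GW9662 and Control libraries and at 1.05, 0.862 and 0.935 TPM in GC. Il12b, which encodes the partner of p19 in IL-23, was listed at 0 in every library. Of the 25 symbols left out, 19 were at 0 in every library, among them Il4, Il12a, Il21 and Il22, and 6, such as Il17a, Il25 and Il27, were above 0 in exactly 1.

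Gene length moved with these differences. Over all genes, when cut into 10 equal bins by length, the median of GC against Control was 0.18 for the shortest genes and -1.09 for the longest. The medians were 0.59 and -1.68 in GC+GW9662 against Control, and 0.40 and -0.51 in GC+GW9662 against GC. Receptor genes (median 4567 exon bases) were longer than ligand genes (median 1966.5). With the length trend removed 2 of 24 receptor chains rose and 13 fell in GC against Control, and 2 of 12 ligands rose and 6 fell. In that comparison the counts of receptors were thus much as before, and those of ligands moved towards falls. In GC+GW9662 against Control 5 receptor chains rose and 9 fell, in place of 3 and 10. There 0 ligands rose and 5 fell, in place of 1 and 2. In GC+GW9662 against GC 13 receptor chains rose and 5 fell, in place of 11 and 5, and the ligand counts stayed at 4 and 3. Shares of all genes called with the trend removed are not given here. Il10ra, Il1rn, Il34 and Il18 lay far below the median of genes of their length, Il7r, Il11 and Il1f9 far above it, and Il6st and Il1rap close to it.

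**Figure D4:**
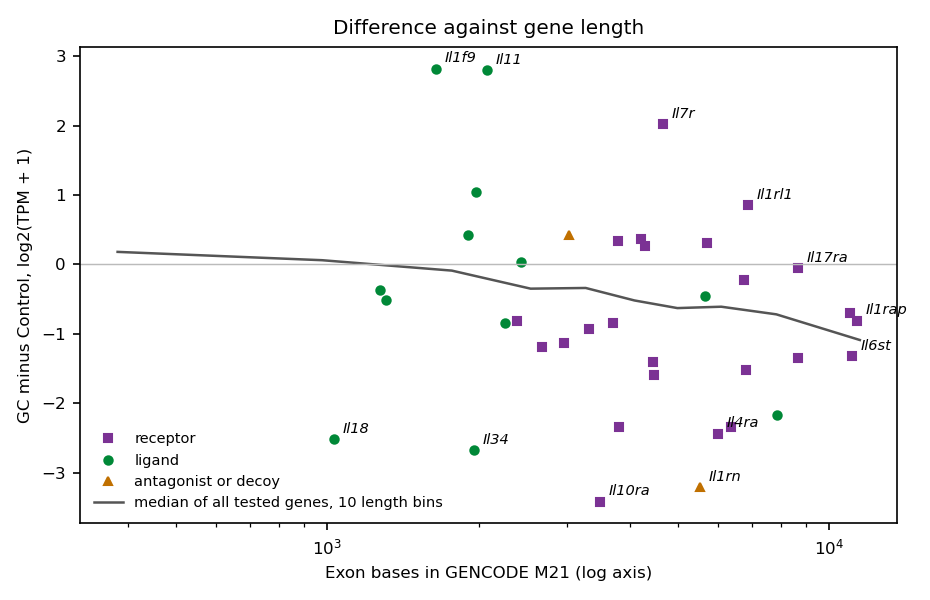
Difference of GC from Control in log2(TPM + 1) against exon bases on a log axis, 1 point per tested member, squares for receptors, circles for ligands and triangles for antagonists. The line joins the medians of all 14985 tested genes in 10 length bins, from 0.18 to -1.09.

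Partner chains and ligands of these receptors that are not named Il were counted from a list of 19 genes, of which 14 were tested. In GC against Control 2 rose and 7 fell (median -0.87), beside 16.2% and 39.1% of all genes, in GC+GW9662 against GC 6 rose and 4 fell (median 0.03), beside 28.3% and 33.5%, and in GC+GW9662 against Control 1 rose and 7 fell (median -0.64), beside 14.1% and 48.6%. Clcf1, another gp130 cytokine, followed Il11: it measured 4.20, 2.89 and 3.23 TPM in GC+GW9662, 28.3, 29.7 and 29.2 TPM in GC and 4.25 and 4.16 TPM in Control. GC exceeded Control by 2.53 ± 0.18 (adjusted p = 1.4e-05). Csf2ra, the receptor chain of GM-CSF, averaged 20.6 TPM in GC+GW9662, 5.21 TPM in GC and 61.8 TPM in Control (GC against Control -3.37 ± 0.23, adjusted p = 1.1e-05). Lifr, the receptor of the gp130 cytokine LIF, averaged 5.82 TPM in GC+GW9662, 3.38 TPM in GC and 23.1 TPM in Control (GC against Control -2.49 ± 0.25, adjusted p = 8.9e-05). Ebi3, a subunit of IL-27 and IL-35, averaged 3.82 TPM in GC+GW9662, 0.938 TPM in GC and 7.06 TPM in Control, and Tslp, a cytokine related to IL-7, averaged 8.89 TPM in GC+GW9662 and 3.27 TPM in GC (1.22 ± 0.18, adjusted p = 0.00066). In GC+GW9662 against Control, the falls with the smallest p included Csf2rb2, a mouse chain of the IL-3 receptor (5.86 TPM in GC+GW9662 and 26.4 TPM in Control, -2 ± 0.35, adjusted p = 0.0028).

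JAK-STAT genes carry the signal of most of these receptors. Of 27 tested, 4 rose and 14 fell in GC against Control (median -1.18), where 16.2% of all genes rose and 39.1% fell. In GC+GW9662 against GC 4 rose and 13 fell (median -0.48; all genes 28.3% and 33.5%), and in GC+GW9662 against Control 0 rose and 21 fell (median -1.44; all genes 14.1% and 48.6%). Socs1, a feedback inhibitor that cytokines induce, measured 2.40, 2.61 and 1.46 TPM in GC+GW9662, 69.1, 81.9 and 70.6 TPM in GC and 1.88 and 1.63 TPM in Control. GC stood far above both other groups (4.76 ± 0.21 over Control, and GC+GW9662 at -4.58 ± 0.19 from GC, adjusted p = 8.9e-07). Socs3, the feedback inhibitor of gp130, measured 21.5, 19.1 and 22.1 TPM in GC+GW9662, 34.1, 53.7 and 45.1 TPM in GC and 29.2 and 28.3 TPM in Control (GC against Control 0.58 ± 0.19, adjusted p = 0.032, and GC+GW9662 against GC -1.02 ± 0.17, adjusted p = 0.0013). Ptpn6, a phosphatase of blood cells that damps cytokine signals, averaged 30.1 TPM in GC+GW9662, 1.93 TPM in GC and 98.3 TPM in Control. Socs2, another feedback inhibitor, averaged 6.21 TPM in GC+GW9662, 4.96 TPM in GC and 20 TPM in Control, so that both treated groups lay below Control. Relative to GC, the adaptor gene Grb2 (-0.83 ± 0.09, adjusted p = 0.00016) and the feedback gene Socs6 (-2.07 ± 0.25, adjusted p = 0.00023) were lower in GC+GW9662. Relative to Control, the feedback gene Socs4 (-1.69 ± 0.23, adjusted p = 0.0017) and Stat5a, a STAT factor of IL-2 signalling (-1.44 ± 0.21, adjusted p = 0.002), were lower in GC+GW9662.

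Genes that process IL-1 and IL-18 or carry their Myd88 signal were counted from a list of 21, with 20 tested. In GC against Control 2 rose and 9 fell (median -0.60), a split near that of all genes (16.2% and 39.1%). There were 7 higher and 10 lower in GC+GW9662 against GC (median -0.58; all genes 28.3% and 33.5%), and in GC+GW9662 against Control 1 rose and 14 fell (median -1.36; all genes 14.1% and 48.6%). Pycard, the adaptor that links inflammasome sensors to caspase-1, had the pattern of Il18: it measured 31.7, 32.4 and 30.2 TPM in GC+GW9662, 0.290, 0.326 and 0.106 TPM in GC and 14.0 and 14.7 TPM in Control. It was higher in GC+GW9662 than in GC (4.71 ± 0.15, adjusted p = 4.0e-07) and than in Control (1.08 ± 0.17, adjusted p = 0.0022). Casp1, which encodes caspase-1, measured 28.0, 23.0 and 26.6 TPM in GC+GW9662, 20.1, 16.2 and 21.8 TPM in GC and 50.7 and 46.8 TPM in Control. GC was lowest (-1.30 ± 0.16 against Control, adjusted p = 0.00028) and GC+GW9662 only slightly higher (0.41 ± 0.15, adjusted p = 0.041). Gsdmd, the pore through which mature IL-1β leaves the cell, averaged 28.7 TPM in GC+GW9662, 4.26 TPM in GC and 32.5 TPM in Control. Tollip, which restrains IL-1 receptor signalling, went the other way, averaging 86.2 TPM in GC+GW9662, 356 TPM in GC and 108 TPM in Control (GC against Control 1.70 ± 0.13, adjusted p = 2.4e-05). The Pellino ligase genes, which act on IL-1 receptor kinases, differed in 2 comparisons. In GC against Control Peli1 rose (1.88 ± 0.29, adjusted p = 0.00093) and Peli2 fell (-2.38 ± 0.19, adjusted p = 2.6e-05). In GC+GW9662 against GC Peli1 fell (-2.96 ± 0.26, adjusted p = 4.5e-05) and Peli2 rose (1.01 ± 0.17, adjusted p = 0.0014). Both were lower in GC+GW9662 than in Control (-1.08 ± 0.29, adjusted p = 0.013, and -1.38 ± 0.19, adjusted p = 0.0018). Relative to Control, the inflammasome sensor gene Nlrc4 (-1.33 ± 0.16, adjusted p = 0.0013) and the kinase gene Irak4 (-1.73 ± 0.30, adjusted p = 0.0027) were lower in GC+GW9662.

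Markers of other cell types moved with the same groups. Of all genes tested, 16.2% rose and 39.1% fell in GC against Control. The shares were 28.3% and 33.5% in GC+GW9662 against GC, and 14.1% and 48.6% in GC+GW9662 against Control. Of 10 macrophage markers, 8 fell and 1 rose in GC against Control, and none was at 0. In GC+GW9662 7 rose and 1 fell relative to GC, and 0 rose and 7 fell relative to Control. All 8 tested adipocyte markers fell in GC against Control and rose in GC+GW9662 against GC. Between GC+GW9662 and Control, 3 of them were higher in GC+GW9662 and 3 lower. Of 7 stromal markers 6 fell and 0 rose in GC against Control. In GC+GW9662 4 rose and 1 fell relative to GC, and all 7 fell relative to Control. Their sums were 304 to 330 TPM in GC+GW9662, 47.2 to 92.4 TPM in GC and 1090 to 1150 TPM in Control. The part of these marker differences in the differences of Il10ra, Il1rn, Il4ra and the other members was not tested. Neutrophil markers rested on S100a8, with 71.1 to 82.0 TPM in GC+GW9662, 248 to 548 TPM in GC and 19.9 to 25.6 TPM in Control, while Ly6g was at or near 0 in every library.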

How the data were processed

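RNA-seq libraries of 8 samples in 3 groups were made with the Smart-Seq2 protocol, which carries no strand, per the labels' protocols. The submitters' processing notes name fastp, HISAT2 2.1.0 and featureCounts. The build and annotation are not given in the sources used here, but 97.6% of rows had the start and end of GENCODE M21 (GRCm38), which gave exon lengths. The values the authors deposited are TPM per gene, by definition reads per gene length with 1 total for all libraries. Of 54232 rows, 54134 genes were each used once. Low TPM values were whole multiples of 1 read (tolerance 0.02 reads) at the M21 length for 11693 of 26812 genes above 0, which gave reads for some members.

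All 14985 genes at or above 1 TPM in 2 or more libraries entered a limma 3.58.1 fit (R 4.3.3, package data.table, version 1.17.8) on log2(TPM + 1), with group means over all 8 libraries, an empirical Bayes trend, two-sided tests and Benjamini-Hochberg adjustment over all genes (threshold 0.05) in each of 3 comparisons. No replicate block was used. The fit was tested on simulated data. Alternatives were other pseudocounts, filters, scalings and priors, replicate blocks, fitting the compared groups alone, removal of a trend with gene length, and leaving out each library. Python 3.11.15, matplotlib 3.10.9, numpy 2.4.6 and pandas 2.3.3 were used for figures and tabulation. Values in each library are given for members with a group mean of at least 5 TPM and for 11 members of wide interest, others by count and range or where they passed, and from each of 3 pathway lists leading passing genes with Socs3 and Casp1. Some genes of these lists that the rule names are not reported here. Members and lists were chosen with earlier results of these data known.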

Additional observations from a re-analysis of the deposited data

How the results depend on the processing

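Of 66 differences between groups that passed in a member, 42 passed under each of up to 21 alternatives and 0 changed sign. With a filter of 5 TPM fewer genes were tested. Then 3 members rose in GC against Control, 5 fell in GC+GW9662 against GC, and 11 changed in GC+GW9662 against Control, 8 of them lower. The median of all genes in GC+GW9662 against Control was -0.66 under that filter and -0.49 in the main fit. Quantile normalization gave 8 higher in GC against Control, and 11 higher and 6 lower in GC+GW9662 against Control, where median-ratio scaling gave 14 higher. Leaving out 1 library at a time gave 3 to 5 higher in GC against Control, and 11 to 18 changed in GC+GW9662 against Control, 1 to 5 of them higher. Where this left Control with 1 library, that library is assumed to vary like those of the other groups. After each group's mean was taken out, same-numbered libraries correlated at -0.16 to 0.08. With 2 or 3 libraries in a group, such values cannot show whether the numbers pair the libraries. The replicate block gave 20 calls by title number and 23 by bracket number in GC against Control. It gave 23 and 24 in GC+GW9662 against GC, and 14 and 16 in GC+GW9662 against Control. Shares of all genes called under each alternative are not given here, so these counts do not tell a shift of members from a shift of all genes.

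Signs turned in differences that had not passed (cause not tested). In GC against Control, median-ratio scaling gave Il17d 0.1 and Il17ra 0.47, quantile normalization Il17d 0.37 and Il17ra 0.53, rescaling without mitochondrial and top 20 genes Il17ra 0.15, and removal of the length trend Il17ra 0.34, Il18rap 0.03 and Il6 -0.14. In GC+GW9662 against Control, median-ratio scaling gave Il10rb 0.56 (adjusted p = 0.016), Il11 0.24, Il13ra1 0.06, Il1f9 0, Il1rl1 0.3, Il2rg 0.14, Il3ra 0.4 and Il7r 0.11. Quantile normalization gave Il10rb 0.08, Il11 0.25, Il13ra1 0.4, Il1f9 0.02, Il1rl1 0.34, Il2rg 0.49, Il3ra 0.63 (adjusted p = 0.015) and Il7r 0.25. Removal of the length trend gave Il17d -0.77 (adjusted p = 0.02), Il17rc -0.31, Il18 -0.17, Il1rl1 0.48, Il21r -0.07, Il34 -0.45 and Il6 -0.36, and the replicate block Il17d -0.04, Il17rc -0.02 and Il1f9 0.03. In GC+GW9662 against GC, rescaling gave Il10 0, Il6 -0.08 and Il6ra -0.09, removal of the length trend Il10 -0.3, Il1b -0.12, Il6 -0.22 and Il7 0.14, quantile normalization Il6 -0.04, a pseudocount of 0.1 Il6 -0.01 and a pseudocount of 5 Il6ra 0.
Leaving out 1 library at a time turned the sign of these, with ranges of Il17ra -0.34 to 0.35 and Il6 -0.13 to 0.21 in GC against Control, and Il15ra -0.12 to 0.2, Il17d -0.16 to 0.2, Il17rc -0.04 to 0.1, Il1a -0.07 to 0, Il1f9 -0.05 to 0.03, Il21r -0.07 to 0.13 and Il6 -0.13 to 0.23 in GC+GW9662 against Control, and Il10 -0.19 to 0.25, Il1b -0.02 to 0.43, Il6 -0.13 to 0.19 and Il6ra -0.24 to 0.19 in GC+GW9662 against GC.
Further differences that had not passed did so under other settings. For GC+GW9662 against Control these included, after median-ratio scaling, Il1rn 0.85 (adjusted p = 0.0035), Il15ra 0.57 (adjusted p = 0.045) and Il18rap 0.57 (adjusted p = 0.047), after quantile normalization Il15ra 0.77 (adjusted p = 0.022), and with the length trend removed Il1rn 0.59 (adjusted p = 0.0047), Il18rap 0.91 (adjusted p = 0.013), Il11 -0.73 (adjusted p = 0.013), Il2rg -0.9 (adjusted p = 0.011), Il1f9 -0.69 (adjusted p = 0.039) and Il3ra -0.48 (adjusted p = 0.032). In GC+GW9662 against GC, removal of the length trend gave Il1rl2 0.7 (adjusted p = 0.011) and Il6ra 0.44 (adjusted p = 0.047). In GC against Control, quantile normalization gave Il20rb 0.66 (adjusted p = 0.024) and Il2rb 0.88 (adjusted p = 0.036).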
